A study of Mus musculus with 13 samples.

Results

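The NF-kB and cytokine feedback genes described here are 10 mouse genes chosen by symbol, Nfkb1, Nfkb2, Relb, Nfkbia, Tnfaip3, Birc3, Socs3, Icam1, Vcam1 and Il1r1, out of 55536 genes in the count table. Each symbol matched 1 row, and all 10 passed the filter on low counts, which kept 16125 genes. RNA was counted in 13 libraries of ventricular nuclei from C57BL/6J mice, an inbred strain. Every mouse had received adeno-associated virus serotype 6 by 1 intraperitoneal injection on postnatal day 1, so that both arms carried a vector, and hearts were taken on postnatal day 56. In the PGR arm the vector encoded the human progesterone receptor, a steroid-activated transcription factor, and in the Con arm it had no insert. The groups were PGR-vector females (PGR_F, 3 libraries, numbered 1, 2 and 4), control-vector females (Con_F, 4 libraries), PGR-vector males (PGR_M, 3 libraries) and control-vector males (Con_M, 3 libraries). Per the labels' protocols, each library pooled 3 to 6 whole ventricles and held nuclei sorted for Pcm1, a centriolar satellite protein used to mark cardiomyocyte nuclei. The promoter that drives the insert, and whether libraries of a group came from separate litters, are points the sources used here do not give, so p-values measure the spread between these pools.

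NF-kB is a family of dimeric transcription factors that wait in the cytoplasm, bound to inhibitory IkB proteins, until cytokine or Toll receptors switch on the IkB kinases. Released dimers enter the nucleus and raise the transcription of their own subunits and inhibitors, of ubiquitin editors that damp the pathway, and of adhesion molecules that capture leukocytes on activated endothelium. The JAK-STAT pathway has a like loop, in which STAT proteins induce SOCS proteins that bind and silence the receptor kinases. In the heart these genes are known from injury and inflammation, in cardiomyocytes as well as in vessel and stromal cells.

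Total counts ran between 31.8 and 86.3 M per library. Pcm1 stood at 103 to 139 CPM (counts per M, scaled by TMM) in all 13 libraries, and the mouse gene Pgr had 0 to 8 counts, while the human insert was not measured here. Among 4 Y-linked genes, the female library Con_F 4 reached 1.01% of the male mean against 0.0112% to 0.112% in the other 6 female libraries, so results that lean on it are given with and without it. Of the cell types a heart can hold, cardiomyocyte markers summed to between 75605 and 94436 CPM per library, with Ttn and Ryr2 the most abundant. RNA of other cells was also read. Markers of endothelium (14 of 14 tested, Vwf and Eng the most abundant) summed to 38.5 to 103.5 CPM, those of fibroblasts (10 of 10, Gsn and Col3a1) to 40.3 to 180.9 CPM and those of macrophages and other myeloid cells (8 of 10, Mrc1 and Ptprc) to 8.09 to 17.8 CPM. Smooth muscle and pericyte markers (8 of 8, Abcc9 and Cspg4) summed to 301 to 363 CPM, most of it from Abcc9, a channel subunit gene that cardiomyocytes also express, with a mean of 285 CPM against 18.9 CPM for Cspg4. Lymphocyte markers, with 0 of 8 genes past the filter, summed to at most 1.22 CPM. In bulk libraries such as these, fewer cells of a type and less RNA per cell cannot be told apart.

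The start regions of 4 of the genes are shown because the text returns to them or because they are the loop's textbook targets. They are Icam1, whose level separated the sexes, Tnfaip3, Birc3, and Nfkbia, the inhibitor induced by NF-kB. Tnfaip3 and Birc3 had a Pearson r of 0.71 over 13 libraries, short of the threshold among 45 gene pairs (permutation p adjusted by Benjamini-Hochberg 0.0695). Each window runs from 250 bases before to 50 bases after the transcription start in RefSeq on GRCm38.p6, 5′ to 3′ on the gene's strand, at chr9:21015690-21015989 (plus) for Icam1, chr10:19015361-19015660 (minus) for Tnfaip3, chr12:55492598-55492897 (minus) for Nfkbia and chr9:7873121-7873420 (minus) for Birc3. Capitals mark matches to the 3 motifs searched on both strands.
Icam1: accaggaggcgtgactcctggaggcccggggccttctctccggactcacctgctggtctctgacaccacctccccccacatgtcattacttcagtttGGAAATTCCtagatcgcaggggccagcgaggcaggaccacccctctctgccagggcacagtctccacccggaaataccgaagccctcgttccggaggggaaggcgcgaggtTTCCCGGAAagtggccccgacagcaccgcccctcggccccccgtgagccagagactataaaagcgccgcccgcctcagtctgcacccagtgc
Tnfaip3: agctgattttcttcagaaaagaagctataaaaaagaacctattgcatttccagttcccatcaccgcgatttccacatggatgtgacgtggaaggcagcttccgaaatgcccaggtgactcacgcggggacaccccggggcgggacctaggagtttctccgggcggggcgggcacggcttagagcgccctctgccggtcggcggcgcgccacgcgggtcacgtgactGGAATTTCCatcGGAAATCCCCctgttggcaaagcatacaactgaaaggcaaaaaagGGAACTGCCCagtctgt
Nfkbia: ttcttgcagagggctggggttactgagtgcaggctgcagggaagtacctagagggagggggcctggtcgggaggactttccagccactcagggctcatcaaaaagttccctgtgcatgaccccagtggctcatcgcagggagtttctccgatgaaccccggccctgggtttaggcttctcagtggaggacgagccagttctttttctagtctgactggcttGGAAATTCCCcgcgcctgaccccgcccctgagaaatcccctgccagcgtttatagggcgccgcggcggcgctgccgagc
Birc3: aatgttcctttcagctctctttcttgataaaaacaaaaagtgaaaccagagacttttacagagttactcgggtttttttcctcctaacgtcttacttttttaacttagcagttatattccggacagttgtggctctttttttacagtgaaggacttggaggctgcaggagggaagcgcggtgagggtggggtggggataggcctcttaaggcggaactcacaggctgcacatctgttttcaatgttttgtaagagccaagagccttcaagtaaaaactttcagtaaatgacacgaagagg

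Windows were found for 7 of the 10 genes. The NF-kB-type motif GGGNNNTTCC occurred in 5.56% of all 32851 windows of 300 bases in the table, and among these genes in Nfkb2, Nfkbia and Tnfaip3. The letters GGAAATTCC, added to the search after these sequences had been read, occurred in 0.32% of windows, and among these genes in Icam1, Nfkbia and Tnfaip3. Since the sequences were known when these letters were added, matches among these genes cannot be weighed against that share. In Nfkbia both motifs lie on the same bases, 29 before the start, and are not separate matches. In Icam1 the match begins 153 bases before the start, and in Tnfaip3 matches begin 24 and 12 bases before the start and 34 after it. The STAT-type motif TTCNNNGAA, which reads the same pattern on both strands, occurred in 8.3% of windows, and among these genes in Nfkb2, Socs3 and Icam1. Birc3 and Il1r1 held none of the 3. A match describes letters and is not evidence of binding.

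The 10 genes spanned a wide range of levels. After division by interval length the highest were the precursor subunits Nfkb1 and Nfkb2 and the inhibitor Nfkbia. In CPM alone the order differed, with medians of 3.06 for Nfkbia, 4.14 for Il1r1, 6.36 for Relb, 6.48 for Nfkb2 and 6.87 for Birc3. Per kb of the counted interval, which includes introns, Nfkb1 had the highest median over the 13 libraries at 1.49 CPM per kb. Nfkb1 encodes p105, the precursor of the p50 subunit (ENSMUSG00000028163, chromosome 3, 135584655 to 135691547, minus strand). Nfkbia, the gene of IkB-alpha (ENSMUSG00000021025, chromosome 12, 55489410 to 55492647, minus), had 0.944 CPM per kb. Nfkb2, which encodes the p100 precursor of p52 (ENSMUSG00000025225, chromosome 19, 46304320 to 46312385, plus), had 0.803 CPM per kb. The ranges of Nfkbia and Nfkb2 overlapped each other, and neither reached that of Nfkb1.

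A middle tier was formed by Birc3 and Relb, whose ranges overlapped each other and stood apart from those of Nfkb2 above and Socs3 below. Birc3, the gene of the ubiquitin ligase cIAP2 (ENSMUSG00000032000, chromosome 9, 7848699 to 7873186, minus), had a median of 0.281 CPM per kb. Relb, the subunit that partners p52 (ENSMUSG00000002983, chromosome 7, 19606217 to 19629438, minus), had 0.274 CPM per kb. The other 5 genes lay lower still, each overlapping the next in the order. Socs3, the feedback inhibitor of gp130 cytokine receptors (ENSMUSG00000053113, chromosome 11, 117966079 to 117970047, minus), had 0.110 CPM per kb. Tnfaip3, the gene of the ubiquitin editor A20 (ENSMUSG00000019850, chromosome 10, 19000910 to 19015657, minus), had 0.0843 CPM per kb. Both act as brakes on cytokine signalling. The leukocyte receptor genes Vcam1 (ENSMUSG00000027962, chromosome 3, 116109949 to 116129688, minus) and Icam1 (ENSMUSG00000037405, chromosome 9, 21015985 to 21028817, plus) had 0.0802 and 0.0610 CPM per kb. Il1r1, the signalling receptor for interleukin-1 (ENSMUSG00000026072, chromosome 1, 40225080 to 40317257, plus), had 0.0449 CPM per kb, the lowest per-kb median of the 10.

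Depth differed accordingly. Nfkb1 had 4571 to 14084 counts per library, whereas Socs3 had 11 to 37 counts and Icam1 11 to 61. At the low end, the 11 counts of Icam1 in Con_M 2 gave 0.313 CPM with an exact 95% Poisson interval of 0.156 to 0.561 CPM, which covers counting error only. The coefficient of variation of CPM over the 13 libraries was 5.97% for Nfkb1 and 42.5% for Icam1, the extremes of the 10. Counting used whole gene intervals, and 11.3% of the Nfkb1 interval and 6.9% of the Il1r1 interval were exons, so intronic reads can make up much of those values. Transcripts on the opposite strand overlap Nfkb2 (Psd and AC114539.1, 183 and 431 counts in all libraries together, against 4120 of Nfkb2), Icam1 (Gm47079, 13 counts against 436) and Vcam1 (Gm43109, 7 counts against 962). The name of the deposited counts carries the letters strrev, which read as reverse-stranded counting. How fully the reads of these pairs were separated was not tested.

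**Figure D1:**
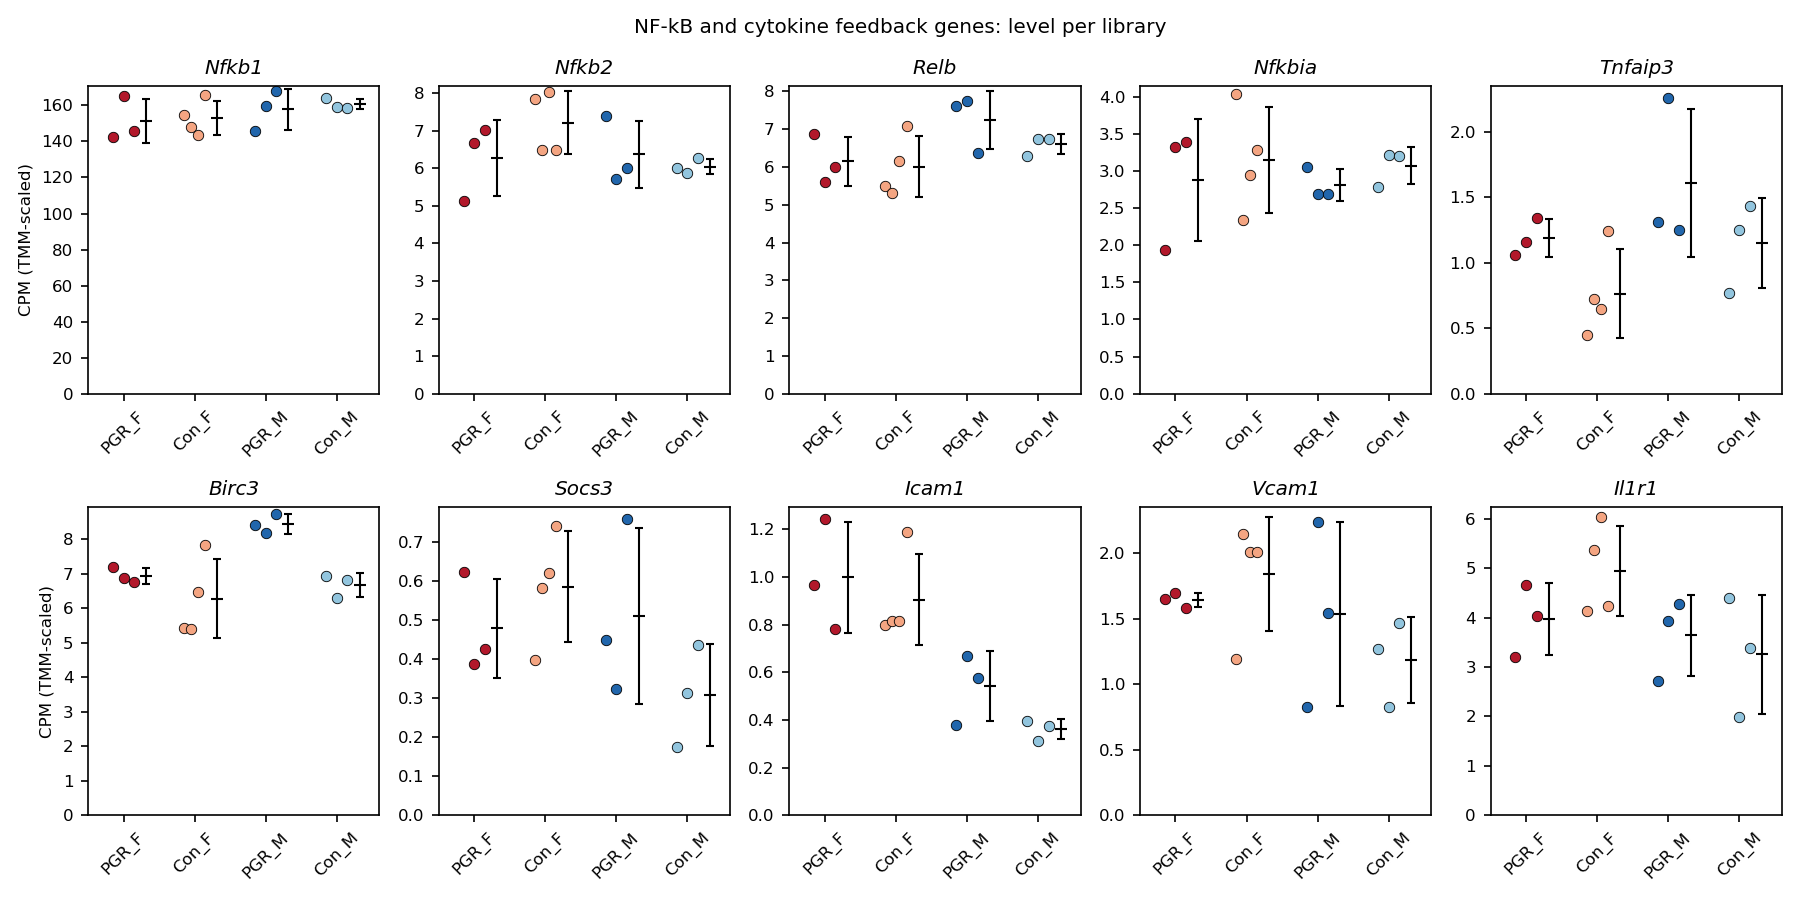
CPM (TMM-scaled, linear axes from 0) of the 10 genes in each library; points are libraries, and the bar beside each group is the mean with its SD (n = 3, or 4 for Con_F). Icam1 is the gene whose 7 female libraries (0.783 to 1.24 CPM) all sit above its 6 male libraries (0.313 to 0.667 CPM), and the PGR_M points of Birc3 (8.17 to 8.75 CPM) sit above those of the other groups.

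Female hearts were compared first. None of the 10 genes passed an adjusted p of 0.05 in PGR_F over Con_F, as for 0% of all genes tested, and none passed with limma-voom or DESeq2, which gave no adjusted p for 1 of them. At an unadjusted p under 0.05 edgeR counted 0 of the 10, against 10.9% of all genes tested. PGR_F and Con_F libraries overlapped for every member, where 4.17% of all genes had all PGR_F libraries above all Con_F libraries and 4.07% had them below. In females 4 of 10 members had a log2 fold change above 0, against 50.7% of all genes, with a median of -0.07 for the members and 0.00 for all genes.

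Among the subunits in females, Nfkb1 averaged 151 ± 12.3 CPM in PGR_F and 153 ± 9.65 CPM in Con_F (SD, n = 3 and 4), a log2 fold change of -0.02 with a 95% interval of -0.19 to 0.15. Nfkb2 averaged 6.27 ± 1.01 CPM in PGR_F and 7.20 ± 0.835 CPM in Con_F, a log2 fold change of -0.20 (interval -0.48 to 0.09). Relb averaged 6.15 ± 0.642 CPM in PGR_F and 6.01 ± 0.800 CPM in Con_F, a log2 fold change of 0.03 (interval -0.23 to 0.30). All 3 intervals include 0 and no subunit gene differed beyond the spread between libraries. Nfkbia averaged 2.88 ± 0.821 CPM in PGR_F and 3.15 ± 0.710 CPM in Con_F, a log2 fold change of -0.12 (interval -0.54 to 0.31).

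Tnfaip3 had the female log2 fold change farthest from 0. It stood at 1.06, 1.16 and 1.34 CPM in PGR_F 1, 2 and 4, against 0.450, 0.723, 0.646 and 1.24 CPM in Con_F 1 to 4. Con_F 4 alone reached into the PGR_F range, and the other 3 Con_F libraries lay below all PGR_F libraries. The log2 fold change was 0.67 (SE 0.32, unadjusted p = 0.0538, adjusted p = 0.464 by edgeR), and leaving out 1 library at a time gave 0.47 without Con_F 1 to 1.00 without Con_F 4. Birc3, which acts with A20 around the TNF receptor complex, stood at 7.21, 6.87 and 6.76 CPM in PGR_F 1, 2 and 4, against 5.44, 5.39, 6.48 and 7.83 CPM in Con_F 1 to 4. Con_F 4 was the highest of the 7 female libraries and the other 3 Con_F libraries the lowest. Its log2 fold change was 0.15 (SE 0.12, adjusted p = 0.693), and ran between 0.08 without Con_F 2 and 0.27 without Con_F 4.

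The cytokine-side genes gave small values in females. Socs3 averaged 0.479 ± 0.127 CPM in PGR_F and 0.586 ± 0.142 CPM in Con_F, a log2 fold change of -0.30 (SE 0.35). Il1r1 averaged 3.97 ± 0.731 CPM in PGR_F and 4.94 ± 0.915 CPM in Con_F, a log2 fold change of -0.31 (SE 0.24). Adhesion genes went 1 each way. Icam1 averaged 0.998 ± 0.232 CPM in PGR_F and 0.904 ± 0.191 CPM in Con_F, a log2 fold change of 0.15 (SE 0.24). Vcam1 averaged 1.64 ± 0.0559 CPM in PGR_F and 1.84 ± 0.435 CPM in Con_F, a log2 fold change of -0.15 (SE 0.29). Leaving out PGR_F 2 turned the Icam1 value to -0.05, and over all single libraries left out Vcam1 ran between -0.32 and -0.07. Endothelial markers, which the vessel-side genes could follow, were below 0 in 14 of 14 in the same contrast, at a median of -0.24 on the log2 scale and none past the adjusted threshold. Fibroblast markers were above 0 in 5 of 10 (median 0.02) and myeloid markers in 5 of 8 (median 0.10). The part of these cells in these values was not tested.

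In males the PGR vector comparison also left all 10 genes short of the adjusted threshold, with 0% of all genes tested called, and DESeq2 and limma-voom called none of the 10 either. Birc3 was the 1 member with an unadjusted p under 0.05, and it was higher; 3.53% of all genes were higher at that p. Birc3 stood at 8.43, 8.17 and 8.75 CPM in PGR_M 1 to 3, against 6.93, 6.30 and 6.82 CPM in Con_M 1 to 3. All PGR_M libraries exceeded all Con_M libraries, as was the case for 7.2% of all genes. That gave a log2 fold change of 0.34 (SE 0.13, unadjusted p = 0.0204, adjusted p = 0.611 by edgeR). In males 8 of 10 members were above 0, against 50.1% of all genes, and the members' median was 0.24 against 0.00.

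Socs3 had the male log2 fold change farthest from 0, on low counts. Its level was 0.449, 0.323 and 0.760 CPM in PGR_M 1 to 3, against 0.175, 0.313 and 0.436 CPM in Con_M 1 to 3. The groups overlapped, with PGR_M 2 within the Con_M range. It had a log2 fold change of 0.85 (SE 0.40, unadjusted p = 0.0502, adjusted p = 0.669), and without Con_M 1, the lowest library, it was 0.45. Tnfaip3 stood at 1.31, 2.26 and 1.25 CPM in PGR_M 1 to 3, against 0.769, 1.25 and 1.43 CPM in Con_M 1 to 3. One PGR_M library was well above the rest and the groups overlapped, for a log2 fold change of 0.52 (SE 0.33), or 0.21 without PGR_M 2.

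None of the adhesion and receptor genes passed in males either. Icam1 averaged 0.541 ± 0.146 CPM in PGR_M and 0.361 ± 0.0427 CPM in Con_M, a log2 fold change of 0.54 (SE 0.30, adjusted p = 0.707). Vcam1 averaged 1.54 ± 0.704 CPM in PGR_M and 1.19 ± 0.326 CPM in Con_M, a log2 fold change of 0.35 (SE 0.32). That direction rests on PGR_M 2, since the Vcam1 value was -0.017 without that library and 0.66 without PGR_M 1. Il1r1 averaged 3.64 ± 0.821 CPM in PGR_M and 3.26 ± 1.20 CPM in Con_M, a log2 fold change of 0.13 (SE 0.26), and it was -0.11 without Con_M 2 and 0.44 without Con_M 1. Endothelial markers were above 0 in 14 of 14 in this contrast, with a median of 0.25 and summed levels of 44.3 to 84.2 CPM in PGR_M and 38.5 to 76.6 CPM in Con_M. Myeloid markers were above 0 in 7 of 8 (median 0.33, 2 with an unadjusted p under 0.05 and no overlap), at 10.1 to 16.3 CPM in PGR_M and 8.09 to 13.2 CPM in Con_M. Fibroblast markers were above 0 in 9 of 10 (median 0.15), at 49.1 to 128.1 CPM in PGR_M and 40.3 to 94.5 CPM in Con_M. No gene of these 3 lists passed the adjusted threshold, and their part in these values was not tested. The subunit genes stayed near 0, at -0.03 for Nfkb1, 0.08 for Nfkb2 and 0.14 for Relb on the log2 scale, and Nfkbia was at -0.12.

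Averaged over the sexes with equal weight, 0 of 10 members passed, against 0.0062% of all genes (1 gene), and limma-voom and DESeq2 (no adjusted p for 1 of them) also called 0 of the 10. At an unadjusted p under 0.05 there were 2 members, Tnfaip3 and Birc3, both higher, where 7.37% of all genes were higher at that p. Tnfaip3 ran from 1.06 CPM through a median of 1.28 to 2.26 CPM in the 6 PGR libraries, against 0.450, 0.769 and 1.43 CPM for the lowest, median and highest of the 7 Con libraries. Birc3 ran from 6.76 CPM through a median of 7.69 to 8.75 CPM in the 6 PGR libraries, against 5.39, 6.48 and 7.83 CPM in the 7 Con libraries. Both genes overlapped between the vectors. On average the log2 fold change was 0.60 for Tnfaip3 (SE 0.23, 1.52-fold, adjusted p = 0.258) and 0.24 for Birc3 (SE 0.09, 1.18-fold, adjusted p = 0.243). Leaving out 1 library at a time gave 0.44 without PGR_M 2 to 0.76 without Con_F 4 for Tnfaip3 and 0.21 without Con_F 2 to 0.30 without Con_F 4 for Birc3. Over all alternatives the adjusted p ran between 0.0694 and 0.501 for Tnfaip3 and between 0.0508 and 0.446 for Birc3. The lowest value of each gene came from the fit without Con_F 4. Without Con_F 4, 338 genes of all passed. Of the 10 members 6 had an averaged log2 fold change above 0, against 51% of all genes, with a median of 0.09 against 0.00. The average rests on both single-sex contrasts and is no separate evidence for either.

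**Figure D2:**
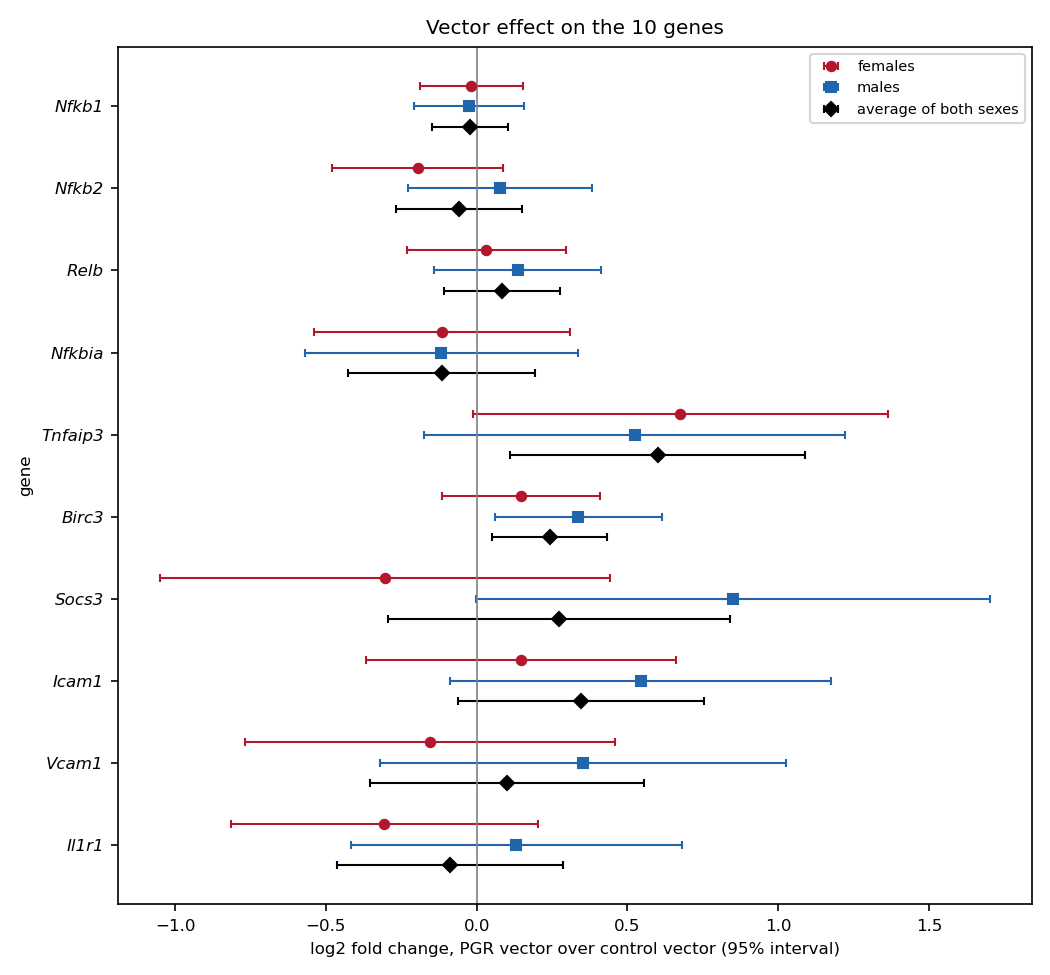
Log2 fold change of PGR vector over control vector for each of the 10 genes, in females (circles), males (squares) and averaged over the sexes (diamonds); bars are 95% intervals from the edgeR fit. The averaged intervals of Tnfaip3 (0.11 to 1.09) and Birc3 (0.05 to 0.43) lie above 0 before adjustment, and Socs3 is at -0.30 in females and 0.85 in males.

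Whether females and males differed in their response was tested by an interaction term. No member passed in edgeR, DESeq2 or limma-voom, as for 0% of all genes, and the vector effect was lower in females than in males for 7 of 10 members (3 above 0, against 51% of all genes; median -0.23 against 0.00). Socs3 was the 1 member with an unadjusted p under 0.05, where 1.54% of all genes were lower at that p. Its vector effect was -0.30 in females and 0.85 in males, a difference of -1.16 on the log2 scale (SE 0.53, unadjusted p = 0.0461, adjusted p = 1.00). Leaving out 1 library at a time moved this difference between -1.48, without Con_M 3, and -0.76, without Con_M 1. For Nfkb1 and Nfkbia the difference was 0.01 and 0.00. Endothelial markers had a difference below 0 in 14 of 14, with a median of -0.48, beside -0.44 for Il1r1 and -0.51 for Vcam1, which ran between -0.75 and -0.20 and between -0.82 and -0.14 with 1 library left out. Myeloid and fibroblast markers had a difference above 0 in 2 of 8 (median -0.36) and 2 of 10 (median -0.09). The part of these cells in those differences was not tested.

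The comparison of females with males under each vector showed Icam1 higher in females. Icam1, the ligand of leukocyte integrins on vessel walls, stood at 0.967, 1.24 and 0.783 CPM in PGR_F 1, 2 and 4, against 0.380, 0.667 and 0.575 CPM in PGR_M 1 to 3. In the control arm it stood at 0.797, 0.817, 0.813 and 1.19 CPM in Con_F 1 to 4, against 0.396, 0.313 and 0.374 CPM in Con_M 1 to 3. Females and males did not overlap under either vector. Icam1 had a log2 fold change of 0.89 under the PGR vector (SE 0.27, unadjusted p = 0.00453, adjusted p = 0.411 by edgeR) and 1.29 under the control vector (SE 0.27, unadjusted p = 0.000254, adjusted p = 0.0719). The control-arm value passed with DESeq2 (adjusted p = 0.0119) and with no filter on low counts (adjusted p = 0.0154), and was 1.14 without Con_F 4 (adjusted p = 0.0857). Over all alternatives its adjusted p ran between 0.0119 and 0.353.

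Since both arms gave the same direction, their mean was tested with equal weight, a contrast added after these values had been seen. Icam1 averaged 0.944 ± 0.197 CPM in 7 female libraries and 0.451 ± 0.138 CPM in 6 male libraries (SD). Its log2 fold change was 1.09 (SE 0.19, 95% interval 0.68 to 1.496, 2.13-fold, edgeR adjusted p = 0.0124). It was the 1 of 10 members called, where 0.887% of all genes were called, and also the 1 called by DESeq2 and by limma-voom. All 7 female libraries lay above all 6 male libraries, as for 0.54% of all genes. Without Con_F 4, whose Icam1 level was the highest of the control libraries, the log2 fold change was 1.01 (adjusted p = 0.0126). At an unadjusted p under 0.05, 1 member was higher, Icam1, and 1 lower, Tnfaip3 at -0.49 (SE 0.23, adjusted p = 0.327), where 8.87% and 6.24% of all genes were. Of the 10 members 6 were above 0, against 51.6% of all genes, with a median of 0.08 against 0.01.

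Markers of endothelium, fibroblasts and myeloid cells lay mostly on the same side, which did not hold for every list. Smooth muscle and pericyte markers were above 0 for 5 of 8 (median 0.17) and cardiomyocyte markers for 2 of 8 (median -0.03). The median smooth muscle and pericyte sum was 315 CPM in females and 334 CPM in males, and the cardiomyocyte sum 81628.5 and 87636 CPM. Averaged over the vectors, endothelial markers had a log2 fold change above 0 for 14 of 14 (median 0.51, 7 with an unadjusted p under 0.05, none past the adjusted threshold), and their summed level was 55.0 to 103.5 CPM in females and 38.5 to 84.2 CPM in males. Fibroblast markers were above 0 for 10 of 10 (median 0.73, 7 with an unadjusted p under 0.05, none past the adjusted threshold). They summed to 78.6 to 180.9 CPM in females and 40.3 to 128.1 CPM in males. Myeloid markers were above 0 for 7 of 8 tested (median 0.26, 3 at that unadjusted p, none past the adjusted threshold). They summed to 11.9 to 17.8 CPM in females and 8.09 to 16.3 CPM in males, with Itgam at 0 counts in every library. Lymphocyte markers, none of them tested, summed to 0.303 to 1.22 CPM in females and 0.125 to 0.516 CPM in males. Set against these sums in the same library, Icam1 had 8.30 to 17.6 counts per 1000 endothelial marker counts in females and 5.17 to 8.58 in males, and 5.26 to 12.3 per 1000 fibroblast marker counts in females and 4.19 to 7.79 in males. Pooled over the vectors, both ratios overlapped between the sexes. Within each vector the endothelial ratio did not overlap. It was 8.30 to 12.4 in Con_F and 5.17 to 8.14 in Con_M. Under the PGR vector it was 9.18 to 17.6 in PGR_F and 7.76 to 8.58 in PGR_M. The fibroblast ratio overlapped under each vector. Per 1000 myeloid marker counts Icam1 had 46.4 to 75.5 counts in females and 30.1 to 40.8 in males, with no overlap. These ratios were computed after the values had been seen, and the part of other cells in the Icam1 difference was not tested further.

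Under the control vector, 0 of 10 members passed in edgeR or limma-voom (0.229% of all genes in edgeR), and 1, Icam1, in DESeq2. At an unadjusted p under 0.05 there were 3, Icam1, Socs3 and Il1r1, all higher, where 7.36% of all genes were higher at that p. Socs3 averaged 0.586 ± 0.142 CPM in Con_F and 0.308 ± 0.131 CPM in Con_M, a log2 fold change of 1.03 (SE 0.38, adjusted p = 0.293), which was 0.63 without Con_M 1. Il1r1 stood at 4.14, 5.37, 6.03 and 4.23 CPM in Con_F 1 to 4, against 4.39, 1.99 and 3.39 CPM in Con_M 1 to 3. Con_M 1 lay within the Con_F range and the log2 fold change was 0.57 (SE 0.24, adjusted p = 0.354), with 0.33 without Con_M 2 and 0.88 without Con_M 1. Vcam1 stood at 1.20, 2.15, 2.01 and 2.01 CPM in Con_F 1 to 4, against 1.27, 0.826 and 1.46 CPM in Con_M 1 to 3, a log2 fold change of 0.62 (SE 0.30, adjusted p = 0.414). Nfkb2 and Icam1 were the 2 members with all Con_F libraries above all Con_M libraries, as for 6.41% of all genes. Nfkb2 stood at 7.83, 6.49, 8.01 and 6.48 CPM in Con_F 1 to 4 and at 6.00, 5.87 and 6.26 CPM in Con_M 1 to 3, a log2 fold change of 0.26 (SE 0.13, adjusted p = 0.451). In the control arm 6 of 10 members were above 0, against 50% of all genes, with a median of 0.15 against 0.00. Endothelial markers were above 0 for 14 of 14 here (median 0.71, 10 with an unadjusted p under 0.05), fibroblast markers for 10 of 10 (median 0.86, 6 at that p) and myeloid markers for 7 of 8 (median 0.50, 2 at that p). None passed the adjusted threshold, and their part in the values of Icam1, Vcam1 and Il1r1 was not tested.

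Under the PGR vector, 0 of 10 members passed in edgeR, DESeq2 or limma-voom (0.143% of all genes in edgeR). At an unadjusted p under 0.05 there were 2, Icam1, which was higher, and Birc3, which was lower, where 4.11% and 3.14% of all genes were. Birc3 stood at 7.21, 6.87 and 6.76 CPM in PGR_F 1, 2 and 4, below the 8.43, 8.17 and 8.75 CPM of PGR_M 1 to 3, a log2 fold change of -0.28 (SE 0.13, adjusted p = 0.670). One member had all PGR_F libraries above all PGR_M libraries (7.31% of all genes) and 1 had them all below (6.41%). Socs3 averaged 0.479 ± 0.127 CPM in PGR_F and 0.510 ± 0.225 CPM in PGR_M, a log2 fold change of -0.13 (SE 0.37), which turned to 0.25 without PGR_M 3. Endothelial markers were above 0 for 11 of 14 (median 0.25), fibroblast markers for 10 of 10 (median 0.62) and myeloid markers for 6 of 8 (median 0.15), none past the adjusted threshold. In the PGR arm 4 of 10 members were above 0, against 53.1% of all genes, with a median of -0.04 against 0.01. The 2 sex comparisons and the 2 vector comparisons share libraries, so their values stand side by side and not as separate support.

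**Figure D3:**
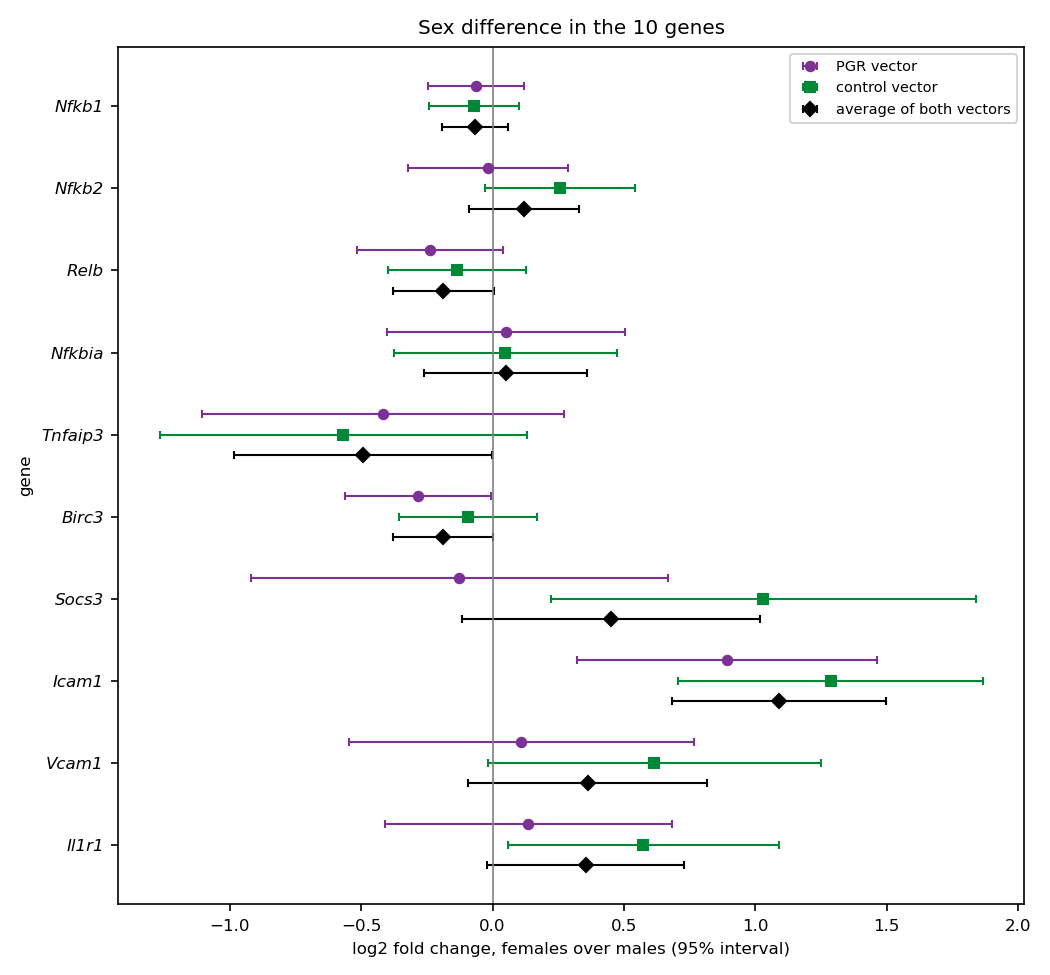
Log2 fold change of females over males for each of the 10 genes, under the PGR vector (circles), under the control vector (squares) and averaged over the vectors (diamonds); bars are 95% intervals from the edgeR fit. The 3 intervals of Icam1 (0.32 to 1.46, 0.71 to 1.87 and 0.68 to 1.496) lie above 0, and those of Nfkb1 include 0.

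How the genes varied together over the 13 libraries is given as a description, since none of the 45 pairs had a Benjamini-Hochberg adjusted p under 0.05 (lowest 0.0625 for Pearson r and 0.261 for Spearman rho). Relb and Birc3 had a Pearson r of 0.76 (permutation p = 0.00278; Spearman rho 0.73, p = 0.00581), on log2 CPM with a prior count of 2. Relb and Tnfaip3 had r = 0.71 (p = 0.00638; rho 0.64, p = 0.0223), and Tnfaip3 and Birc3 0.71 (p = 0.00668; rho 0.47, p = 0.104). Without the 2 libraries farthest from the median the 3 r values were 0.65, 0.59 and 0.58. Taken as deviations from the 4 group means, the same r values were 0.64, 0.59 and 0.44. Nfkb2 and Nfkbia had r = 0.66 (p = 0.0140; rho 0.56, p = 0.0496; 0.61 without the 2 farthest libraries and 0.73 within groups). For Vcam1 and Il1r1 r was 0.76 (p = 0.00246; rho 0.55, p = 0.0555) but 0.36 without the 2 farthest libraries, so that it rests on them. For Icam1 and Il1r1 r was 0.61 (p = 0.0252; rho 0.55, p = 0.0560) and likewise 0.36 without 2 libraries. The levels share a library and its scaling, so r describes these 13 libraries.

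**Figure D4:**
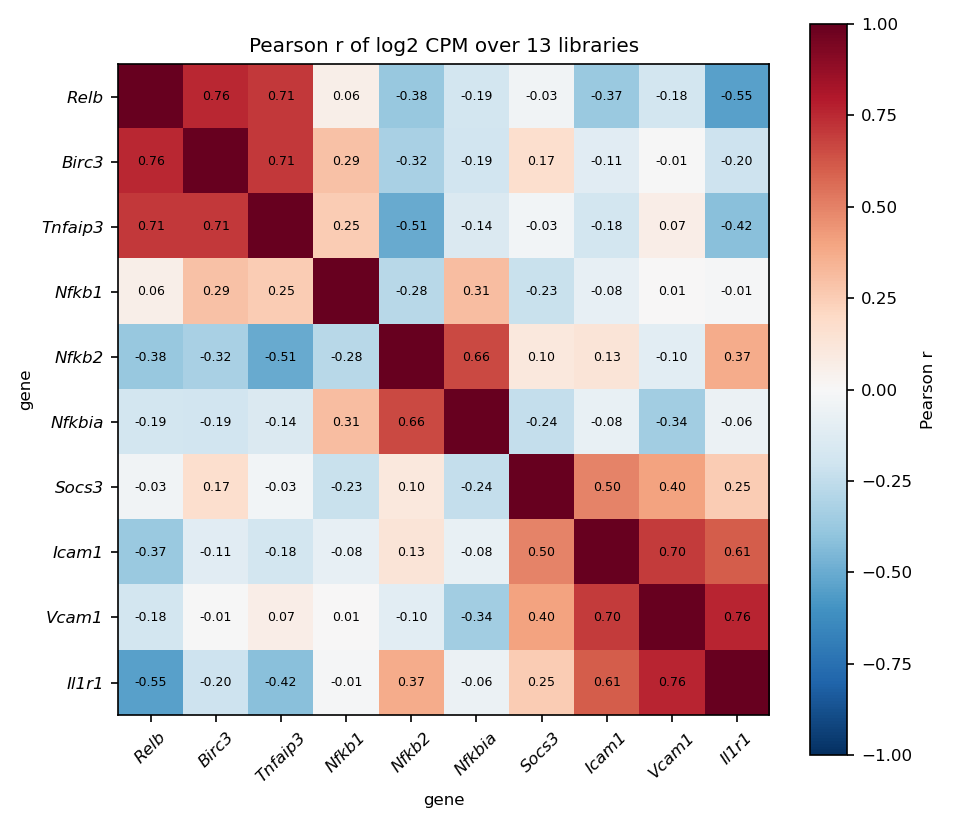
Pearson r of log2 CPM between the 10 genes over 13 libraries; each square is 1 pair and the colour scale runs from -1 to 1. The 3 pairs among Relb, Tnfaip3 and Birc3 have r of 0.71 to 0.76 and those among Icam1, Vcam1 and Il1r1 0.61 to 0.76, none with an adjusted p under 0.05.

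The interleukin-1 receptor gene followed the marker sums of endothelium, fibroblasts and myeloid cells. Il1r1 and the summed CPM of 14 endothelial genes, both as log2, had r = 0.92 over 13 libraries (permutation p = 1e-05, the smallest that 100000 resamples can give; rho 0.80, p = 0.00177; adjusted over 60 gene and marker pairs 0.0006 and 0.0265). It was 0.88 within groups, and 0.80 without the 2 libraries with the most extreme marker sums. With the fibroblast sum Il1r1 had r = 0.86 (p = 0.00022, adjusted 0.0066; rho 0.73, p = 0.00699), 0.82 within groups and 0.63 without the 2 most extreme libraries. With the myeloid sum it had r = 0.70 (p = 0.00726, adjusted 0.0396; rho 0.56, p = 0.0499, adjusted 0.230), and 0.45 without 2 libraries. Vcam1, the ligand of the integrin VLA-4, had r = 0.84 with the fibroblast sum (p = 0.00055, adjusted 0.0096; rho 0.73, p = 0.00589), 0.79 within groups, but 0.56 without the 2 most extreme libraries. With the myeloid sum Vcam1 had r = 0.82 (p = 0.00064, adjusted 0.0096; rho 0.80, p = 0.00133), and 0.77 without the 2 libraries most extreme in that sum. With the endothelial sum Vcam1 had r = 0.80 (permutation p = 0.00169, adjusted 0.0145, and rho 0.76, p = 0.00354). That r was 0.71 within groups but 0.46 without the 2 libraries most extreme in the endothelial sum. Because Icam1 separated the sexes, its relation is given within each sex. With the endothelial sum r was 0.18 in 7 female libraries (exact permutation p = 0.755; rho 0.54, p = 0.236) and 0.82 in 6 male libraries (exact permutation p = 0.0528; rho 0.89, p = 0.0333). With the myeloid sum r was 0.65 in females (exact permutation p = 0.130; rho 0.82, p = 0.0341) and 0.93 in males (exact permutation p = 0.00278; rho 0.94, p = 0.0167). Without the 2 libraries farthest from the median marker sum, these 4 r values were 0.64, 0.72, 0.43 and 0.83. With the fibroblast sum r was 0.32 in females (exact permutation p = 0.528) and 0.73 in males (exact permutation p = 0.111). Without 2 libraries chosen in the same way these were 0.87 and 0.48. Adjusted over the 6 such relations, which include fibroblasts, the 4 Pearson p-values were 0.755, 0.158, 0.195 and 0.0167. The matching adjusted Spearman p-values were 0.236, 0.068, 0.068 and 0.068, none under the threshold.

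**Figure D5:**
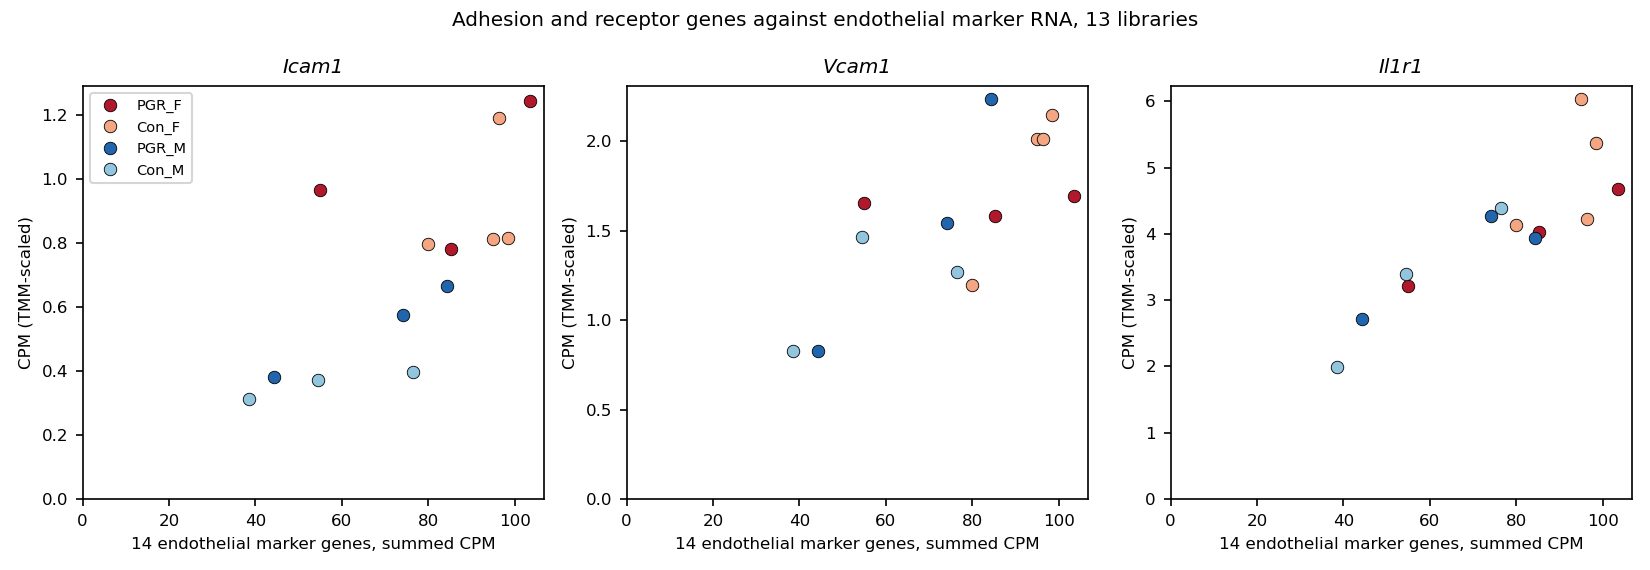
CPM of Icam1, Vcam1 and Il1r1 (vertical axes) against the summed CPM of 14 endothelial marker genes (horizontal axes) in the 13 libraries, coloured by group; all axes are linear and start at 0. Il1r1 rises with the marker sum over the 13 libraries (r = 0.92). For Icam1 all female points lie above all male points, while marker sums end at 84.2 CPM in males and reach 103.5 CPM in females. Icam1 counts per endothelial marker count overlapped between the sexes when the vectors were pooled, but not within either vector. The part of endothelial cells was not tested.

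Nfkb1 and the smooth muscle and pericyte sum, which is mostly Abcc9, had r = 0.77 (permutation p = 0.00299, adjusted 0.0191; rho 0.82, p = 0.00101) and 0.75 without the 2 extreme libraries. The mean of the 10 genes per library, each centred on its own mean log2 CPM, ran from -0.31 in Con_M 2 to 0.28 in Con_F 4. Of 10191 protein-coding genes considered, those whose log2 CPM was most like that mean over the 13 libraries were Ppp1ca (r = 0.89), Sh3pxd2b (0.88), Ccl27a (0.86), Lamb1 (0.85) and Fbn1 (0.85). None of these 5 passed the test in any vector comparison.

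The wider pathway was read in 7 lists of 128 genes, 99 of which could be tested. None of the 99 passed an adjusted p of 0.05 in any of the comparisons. In females 8 were higher and 7 lower at an unadjusted p under 0.05 (median log2 fold change 0.00), where 935 and 830 of all 16125 genes were. In males 5 were higher and 3 lower (median 0.04), where 570 and 636 of all genes were. Ligands were mostly out of reach: 7 of 25 could be tested, with Tnf and Il1b among those under the filter at no more than 0.07 CPM in any group mean. All 16 ubiquitin editors and other feedback genes and all 17 SOCS and JAK-STAT genes were tested, 26 of 28 kinases and adaptors, 18 of 22 receptors, 8 of 11 adhesion genes and 7 of 9 Rel and IkB genes.

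Of the tested pathway genes with the smallest unadjusted p in each direction, those averaged over the sexes had the following values. Ripk1, the kinase that relays TNF receptor signals, averaged 19.5 ± 0.816 CPM in PGR_F and 16.3 ± 2.67 CPM in Con_F, and 21.7 ± 1.42 CPM in PGR_M and 18.0 ± 0.830 CPM in Con_M. Its averaged log2 fold change was 0.26 (SE 0.08, adjusted p = 0.154). Ripk2, the kinase of NOD receptors, averaged 13.5 ± 1.05 CPM in PGR_F and 10.5 ± 1.85 CPM in Con_F, and 13.3 ± 0.668 CPM in PGR_M and 11.4 ± 0.675 CPM in Con_M, for 0.30 (SE 0.09, adjusted p = 0.158). Tnfsf10, the death ligand TRAIL, was at 0.42 (SE 0.15, adjusted p = 0.224). Lower values came from Ticam1, the Toll adaptor TRIF, at -0.31 (SE 0.09, adjusted p = 0.170), the SOCS family member Socs7 at -0.21 (SE 0.06, adjusted p = 0.130) and the phosphatase gene Ptpn11 at -0.43 (SE 0.14, adjusted p = 0.213).

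Within a sex, the other genes named by that rule had these log2 fold changes. In females Jak2, a cytokine receptor kinase, was at 0.21 and Tlr4, the receptor for bacterial lipopolysaccharide, at 0.25, while Card10, an adaptor of the BCL10 complex, was at -0.39 (adjusted p between 0.39 and 0.41). In males Csf1, a macrophage growth factor, was at 0.33 and Socs5 at -0.16 (adjusted p = 0.640 and 0.659). Between the sexes the vector effect differed by -0.99 for Cish, a STAT5 target of the SOCS family (SE 0.33), with 48.6 ± 11.7 CPM in PGR_F and 68.3 ± 18.6 CPM in Con_F, and 56.3 ± 8.54 CPM in PGR_M and 39.7 ± 7.83 CPM in Con_M. Its difference has the sign of that of Socs3. For Csf1 the difference was -0.54 (SE 0.20), for Card10 -0.48 (SE 0.23), for Il15 0.43 (SE 0.19), for Tab2 0.21 (SE 0.11) and for Tlr4 0.27 (SE 0.15). The adjusted p was 1.00 for each of these 6.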

How the data were processed

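RNA of Pcm1-sorted ventricular nuclei was sequenced in 13 libraries after rRNA depletion, per the labels' protocols. Raw counts, not normalized, were deposited by the authors in a table of 55536 genes, and a smaller table of 15645 genes that held the same counts for genes with a mean count of 10 or more. Per the submitters' processing notes, the tools were featureCounts 1.5.0 and STAR 2.5.3a, with mm10 and GRCm38 named as builds without a role. The gene length given in the table equalled the whole gene interval for all 55536 genes, so intronic reads of nuclear RNA count towards a gene and per-kb levels use that interval. No per-sample column was left unmapped.

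Counts were fitted in R 4.3.3 with edgeR 4.0.16 (TMM scaling, filterByExpr, robust quasi-likelihood test, 4 group means, all 13 libraries), and p-values were adjusted by Benjamini-Hochberg over the 16125 genes tested, with a threshold of 0.05. CPM uses TMM-scaled totals, and log2 CPM a prior count of 2. Intervals are 95%. DESeq2 1.42.0, limma-voom (limma 3.58.1), other scalings, filters, a replicate block and leaving out each library were alternatives, and the fitting code was tested on simulated data. Correlations were tested with 100000 permutations, or exactly within a sex. The closest 2 libraries differed by a chi-square of 26.5 per degree of freedom, so none was a duplicate. The 10 genes, the pathway and marker lists and the comparisons were chosen with earlier results of these data known. The sex difference averaged over the vectors, the GGAAATTCC search and the ratios of Icam1 to marker counts were added after values had been seen. Pathway genes are named as the 3 higher and 3 lower with the smallest p in each vector comparison among those with a mean log2 CPM of at least 0, and similar genes as the 5 with the highest r among protein-coding genes with a mean log2 CPM of at least 1.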

Additional observations from a re-analysis of the deposited data

Results flagged for a closer look

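In the group of 4 Con_F libraries, 4 of 17 measures had a library that stood apart by Dixon's criterion (gap over range above 0.829), where chance gives about 1 in 20. Icam1 had its highest Con_F value in Con_F 4, at 1.19 CPM (gap over range 0.950), against 0.797 to 0.817 CPM in the other 3. Vcam1 had its lowest Con_F value in Con_F 1, at 1.20 CPM (0.856). The smooth muscle and pericyte marker sum was highest in Con_F 4, at 340.2 CPM (0.849), and so was the sum of 4 Y-linked genes, at 4.20 CPM (0.915). Groups of 3 libraries cannot be read this way.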

How the results depend on the processing

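Of 1440 recomputed log2 fold changes of the 10 genes, 1378 kept their direction and side of the threshold, 60 changed sign and 2 newly passed. The 2 were Icam1 between control-vector females and males, at 1.30 with no filter on low counts and 1.29 with DESeq2, so that 1 member instead of 0 was called there. The Icam1 sex difference averaged over the vectors passed in all 20 alternatives (0.98 to 1.17, adjusted p 0.000422 to 0.0486). Counts of all genes called moved with the method and the libraries, and the cause was not tested. With no filter they were 25 (females), 12 (males), 146 (averaged), 1 (difference between the sexes), 131 (sex, control vector), 51 (sex, PGR vector) and 363 (sex, averaged), against 0, 0, 1, 0, 37, 23 and 143. DESeq2 gave 81, 29, 334, 1, 224, 80 and 548. With only the libraries of the 2 groups compared, the counts were 1 in males, 17 for sex under the control vector and 56 under the PGR vector; averaged contrasts and the difference between the sexes need all 4 groups and were not run so. limma-voom gave 2 for the averaged vector effect. Leaving out 1 library at a time gave 0 to 20 (females), 0 to 3 (males), 1 to 338 (averaged), 0 to 0 (difference), 14 to 99 (sex, control vector), 10 to 44 (sex, PGR vector) and 64 to 465 (sex, averaged). Without Con_F 4 these were 20 in females, 338 averaged, 92, 44 and 371; the 3 in males came without PGR_M 2, the 14 without Con_F 2 or Con_F 3, the 99 and 465 without Con_M 1, the 10 without PGR_F 1 and the 64 without Con_M 2. The averaged vector effect called 34 without PGR_F 4 and 2 to 4 without Con_M 3, PGR_M 1 or PGR_M 2, and males 1 without Con_F 4. Other counts that moved by over 1.5 times were 14 to 24 for sex under the control vector (without Con_F 1, 2 or 3, Con_M 2 or 3, PGR_F 2 or 4, or PGR_M 2 or 3), 10 to 12 under the PGR vector (without PGR_F 1 or 2, or PGR_M 2 or 3) and 64 to 93 averaged (without Con_F 2 or 3, Con_M 2 or 3, any PGR_F library, or PGR_M 1 or 3).

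The largest value that changed sign was that of Vcam1 in males, at 0.35. In the interaction of vector and sex, Nfkbia was -0.0061 with RLE factors, -0.019 with upper quartile factors, -0.023 with no filter, -0.0018 in the smaller table, -0.014 with limma-voom and -0.00600 with DESeq2, and Nfkb1 was -0.013 with upper quartile factors and -0.014 with no filter. Leaving out 1 library gave, in females, Nfkb1 -0.083 to 0.023, Relb -0.054 to 0.12, Nfkbia -0.26 to 0.080 and Icam1 -0.052 to 0.30; in males, Nfkb1 -0.068 to 0.028, Nfkb2 -0.044 to 0.15, Vcam1 -0.017 to 0.66 and Il1r1 -0.11 to 0.44; averaged, Nfkb1 -0.053 to 0.0055, Vcam1 -0.087 to 0.25 and Il1r1 -0.21 to 0.064; and for the difference, Nfkb1 -0.060 to 0.049, Nfkbia -0.14 to 0.19 and Tnfaip3 -0.059 to 0.47. For sex under the control vector it gave Nfkbia -0.10 to 0.17, under the PGR vector Nfkb2 -0.12 to 0.10, Nfkbia -0.091 to 0.25, Socs3 -0.36 to 0.25, Vcam1 -0.20 to 0.48 and Il1r1 -0.040 to 0.26, and averaged Nfkbia -0.030 to 0.15.

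Same-numbered libraries of different groups had deviation correlations of -0.25 to 0.25 over 16 pairs, 3 of them over 0.1. Differently numbered libraries were not set beside them, so these values cannot show whether replicate numbers pair the libraries. With the replicate block the sex difference under the PGR vector called 35 genes, and sign changes were Nfkbia -0.027 (difference), -0.0030 (sex, control vector), -0.030 (sex, PGR vector) and -0.017 (sex, averaged), Nfkb2 0.00046 and Socs3 0.040 (both sex, PGR vector). Socs3 and Icam1 had 11 counts in their lowest libraries, where counting error is wide. The intervals of their fold changes hold counting error and the spread between pools, and the share of each was not tested. Changes of these genes smaller than those intervals were not detectable with these libraries.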
